A study of Macaca fascicularis with 2 samples.

Results

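RBM3 and CIRBP are the cold-inducible RNA-binding proteins of mammalian cells, and their transcripts were followed here through the cell types of the cynomolgus monkey (Macaca fascicularis) testis. They were taken by symbol from the 28845 features of the count matrices, so 2 genes of 28845 are described. Each protein has a single RNA recognition motif followed by a glycine-rich tail. Both are induced when cells are cooled mildly, bind mRNAs and help to keep translation going, and CIRBP is also known for a high level in male germ cells. A scrotal testis is cooler than the body core, whereas a testis held in the abdomen is at core temperature, and loss of CIRBP with heat or cryptorchidism has been described in rodents.

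The study made unilateral cryptorchidism in cynomolgus monkeys and profiled single cells of the abdominal testis (UAT) and of the scrotal testis of the other side (CST), with 1 droplet library of 3′ RNA ends for each. Age, the time since the operation, the number of animals and the temperature of the testes are not given in the sources used here, so the name "cold-inducible" is background that no measurement here checks. Both suspensions were digested at 37 °C for up to 30 min, per the labels' protocols. With 1 library per position there is no replicate check and no test, and every interval below is a 95% interval for counting error only.

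The UAT library held 12564 barcodes and 111047299 transcript molecules (UMIs), and the CST library held 15952 barcodes and 197225937 UMIs. After removal of poor barcodes and of likely doublets, 11131 UAT and 13201 CST cells remained. They formed 33 clusters, which were named from marker genes. The names mean Sertoli-like, Leydig-like and so on throughout. Of the cells, 0.665% in UAT and 12.7% in CST stayed unnamed, the latter mostly in clusters of low depth. The libraries shared 50 cell barcodes. RNA of elongating spermatids was found in every class of CST: PRM1, a protamine of sperm chromatin, lay between 620 and 6765 CPM in its somatic classes, and at no more than 1.41 CPM in any UAT class. All 14 elongating spermatid markers were detected in each CST class with at least 50 cells. RNA outside cells was estimated to make up 4.43% of the UMIs of UAT cells and 9.42% of those of CST cells. At those shares, and if it had the make-up of the whole library, free RNA would give 5.76 CPM of RBM3 in UAT and 6.63 CPM in CST. For CIRBP it would give 11.3 and 24.1 CPM.

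Within the germ line of the scrotal testis, RBM3 was highest in spermatogonia and nearly gone from the late spermatocyte stage on. It was not confined to germ cells: CST somatic classes with at least 50 cells held 315 to 549 CPM of RBM3. CIRBP was high for longer, with its highest levels in differentiating spermatogonia and early meiotic prophase. It was lower late in meiosis and higher again in maturing spermatids. Levels are in CPM, the UMIs of the gene per 1000000 UMIs of the class. They are compared between classes, not between the 2 genes, because capture at the 3′ end differs between transcripts.

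RBM3 stood at 480 CPM (458 to 502) in the 576 undifferentiated spermatogonia, the stage that holds the stem cells. The name is relative, since this cluster scored 0.60 higher for differentiating than for undifferentiated markers. That difference was 4.02 in the cluster of differentiating spermatogonia. RBM3 was 762 CPM (737 to 788) in the 319 differentiating spermatogonia, which divide before meiosis. The ratio of these stages was 1.59 (1.5 to 1.68), and 26.9% of the 8750 genes tested were at least 1.5-fold higher in the same step. In the 193 early prophase spermatocytes RBM3 was at 153 CPM (136 to 172), 4.97-fold below differentiating spermatogonia (4.41 to 5.62). A decrease of at least 1.5-fold was seen for 28.2% of genes in this step.

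From there RBM3 dropped below the level estimated for free RNA. The 2499 late spermatocytes held 66 RBM3 UMIs in all, a level of 1.46 CPM (1.13 to 1.86). That was 105-fold below early prophase (80.0 to 139), and 1.82% of 8556 genes were at least 100-fold lower. The size of this fold rests on which cells form the 2 classes: it was 113 with coarser clusters (resolution 0.5), 47.7 with a minimum of 200 genes, 33.2 as a mean over cells, 17.1 when each cell was classed by its own markers and 2.19 without removal of doublets. The 1899 round spermatids held 83 RBM3 UMIs (1.89 CPM, 1.51 to 2.35), and the 3043 elongating spermatids held 38 (0.904 CPM, 0.64 to 1.24). These levels lie below the 6.63 CPM that free RNA alone was estimated to give, so that estimate is too high for RBM3 in these classes. With so few UMIs, expression and free RNA cannot be told apart, and the levels are not read as expression. Neighbouring late stages could not be ordered firmly: round over late spermatocytes gave a ratio of 1.29 with an interval of 0.925 to 1.82.

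CIRBP took another course. It was at 512 CPM (490 to 535) in undifferentiated and 849 CPM (822 to 877) in differentiating spermatogonia, a ratio of 1.66 (1.57 to 1.75). In early prophase it stood at 957 CPM (913 to 1002), 1.13 times the preceding stage (1.06 to 1.19), which made early prophase the highest class of either library. That order turned under 2 alternatives: without removal of doublets CIRBP was 677 CPM in early prophase and 825 CPM in differentiating spermatogonia, and as a mean over cells it was 872 and 874 CPM. RBM3 was already lower in early prophase. CIRBP then measured 317 CPM (312 to 322) in late spermatocytes, 96.0 CPM (93.2 to 99.0) in round spermatids and 199 CPM (195 to 203) in elongating spermatids. The minimum was thus in round spermatids, and elongating spermatids were 2.07 times higher (2.00 to 2.15), a step in which 16.3% of 6472 genes were at least 1.5-fold higher. All 3 of these later CIRBP levels were above the free RNA estimate of 24.1 CPM.

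The levels in early prophase and in spermatids depended on which cells were placed in the class. RBM3 in early prophase was 153 CPM here, 249 CPM with coarser clusters (resolution 0.5), 67.9 CPM with a minimum of 200 genes, 33.5 CPM when each cell was classed by its own markers and 13.8 CPM without removal of doublets. It lay below undifferentiated and above late spermatocytes in each of these that gave all classes. Without removal of doublets RBM3 was 9.24 CPM in round and 7.80 CPM in elongating spermatids, and CIRBP 135 CPM in late spermatocytes, against 317 CPM as reported.

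**Figure D1:**
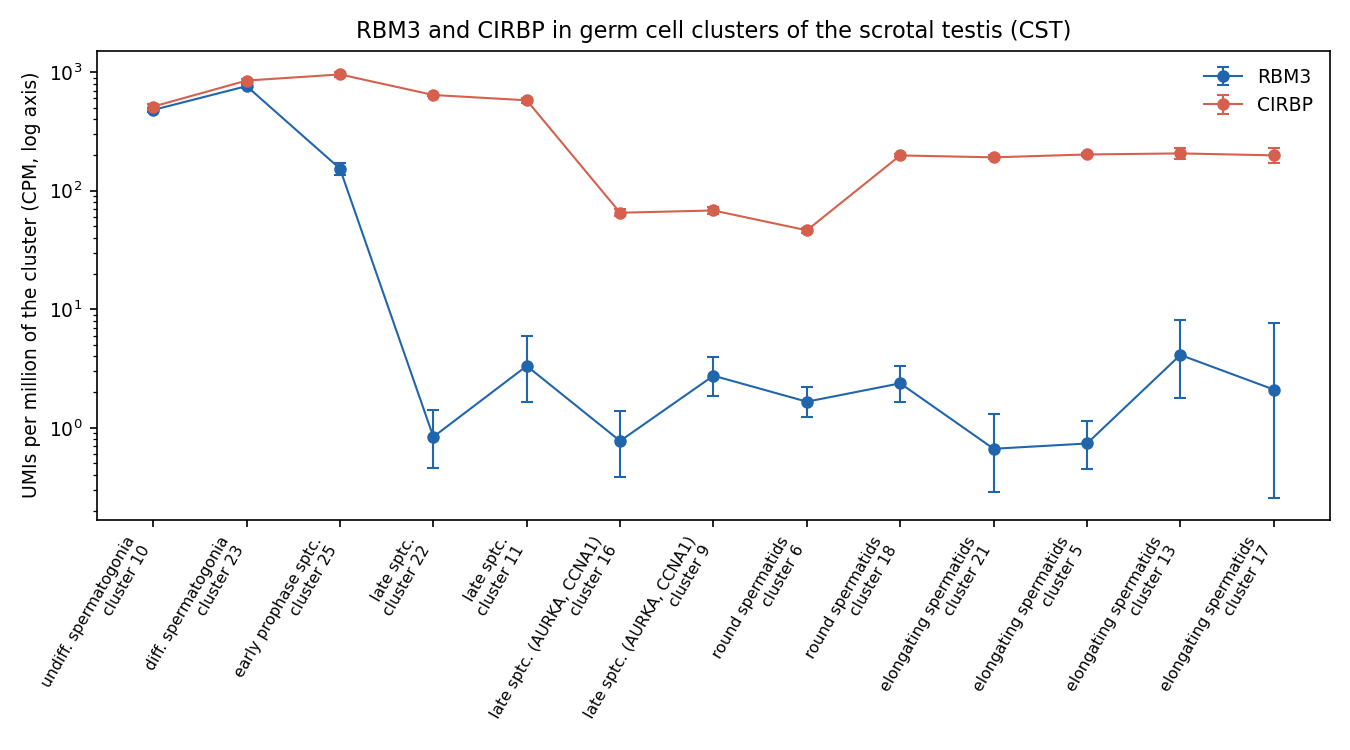
Level of RBM3 and CIRBP (CPM, log axis) in each germ cell cluster of the scrotal testis, ordered by stage, with lines only to guide the eye; bars are exact 95% Poisson intervals and sptc. stands for spermatocytes. RBM3 is between 0.67 and 4.12 CPM in every cluster from late spermatocytes on, while CIRBP dips to 46.3 CPM in 1 round spermatid cluster and is at 198 CPM in the other.

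The class averages of CIRBP hid a steep step inside late spermatocytes. Of the 4 clusters in that class, 2 were led by AURKA and CCNA1, a kinase and a cyclin of the meiotic divisions. The other 2 carried more H1-6, the testis-specific linker histone, at 770 and 918 CPM against 24.0 and 26.0 CPM. The clusters with H1-6 had 579 and 642 CPM of CIRBP, and those led by AURKA and CCNA1 had 68.1 and 65.2 CPM. Pooled, CIRBP was 9.50-fold lower in the clusters led by AURKA and CCNA1 (9.03 to 10.0), where 30.3% of 6688 genes were at least 1.5-fold lower, and CIRBP ranked 103 from the lowest. This split was chosen after the values were seen. The change between late spermatocytes with H1-6 and early prophase was much smaller, a 1.52-fold decrease (1.44 to 1.59), and 50.9% of genes decreased by at least 1.5-fold there.

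The H1-6 clusters were both high in CIRBP although their median cells differed in depth, with 43816 UMIs in one and 2077 in the other. The low clusters had medians of 23125 and 8634 UMIs. The cells of the deepest cluster held 30.1 CIRBP UMIs each on average. RBM3 stayed between 0.77 and 3.32 CPM in all 4 clusters.

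Round spermatids were split in a similar way. In the cluster with little PRM1 (703 CPM, a level also found in spermatocytes) CIRBP was at 46.3 CPM (43.9 to 48.8), its lowest level in any named cluster. In the cluster with 14700 CPM of PRM1, a gene that rises as spermatids mature, CIRBP was at 198 CPM (191 to 206), a ratio of 4.28 (4.01 to 4.57). In this step 26.4% of 6819 genes were at least 1.5-fold higher and 41.7% at least 1.5-fold lower. The 4 elongating spermatid clusters then ranged only from 191 to 206 CPM. Elongating spermatids as a class did not differ from the later round spermatids beyond counting error (ratio 1.0, 0.962 to 1.05), although 65.3% of 5815 genes were at least 1.5-fold lower in that step. A level scaled to the class total rises when other transcripts are lost, and CIRBP UMIs per cell were 1.02 in the round cluster with little PRM1, 5.13 in the one with more and 2.75 in elongating spermatids.

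RBM3 lies on the X chromosome in the RefSeq gene table of the species (assembly T2T-MFA8v1.1), whereas CIRBP is autosomal. In mammals the X is transcriptionally silenced during the pachytene stage of male meiosis. Between early prophase and late spermatocytes, 204 of 213 X-linked genes (95.8%) were at least 1.5-fold lower, against 52.0% of 7371 autosomal genes. At least 10-fold lower were 154 X-linked genes (72.3%) and 9.40% of autosomal ones. At least 100-fold lower were 63 X-linked genes (29.6%) and 1.0% of autosomal ones. RBM3 was one of the 63 in these classes, and under several of the alternatives given above its fold was under 100. CIRBP changed by -1.56 on the log2 scale (with 10 CPM added), against an autosomal median of -0.55 and an X-linked median of -2.20.

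**Figure D2:**
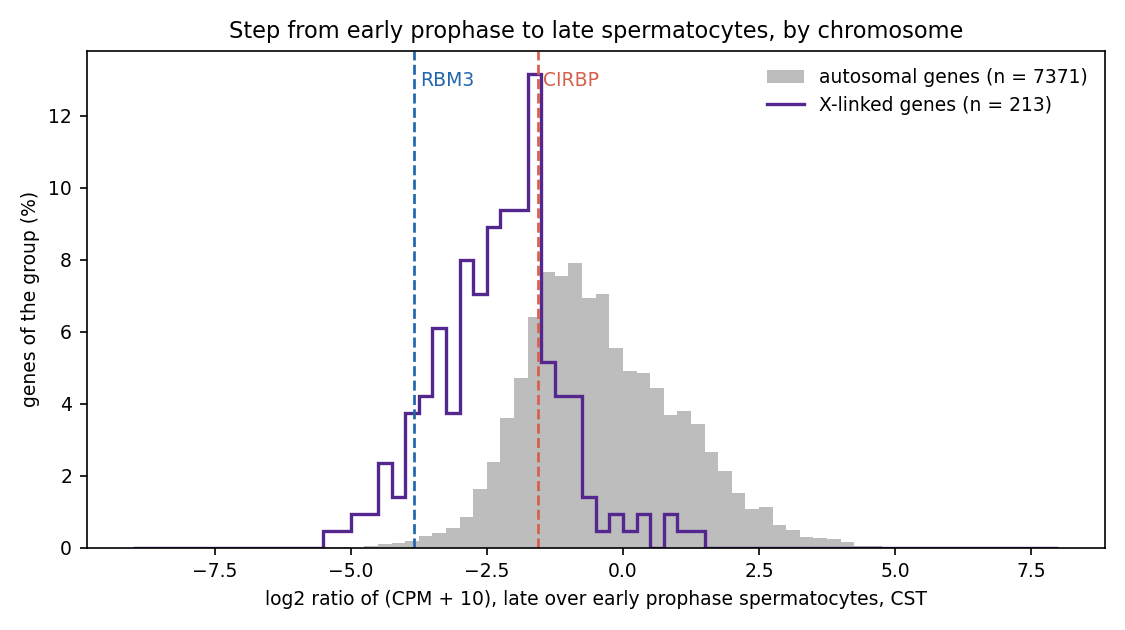
Share of X-linked (outline) and autosomal (filled) genes by their log2 ratio of late over early prophase spermatocytes in CST, with 10 CPM added to each level; dashed lines mark the members. RBM3 lies at -3.83, in the lower part of the X-linked genes, and CIRBP at -1.56, below the autosomal median of -0.55.

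After meiosis RBM3 stayed under the 20 CPM asked of a tested gene. Of 59 X-linked genes with at least 100 CPM in undifferentiated spermatogonia, 37 (62.7%) were under 5 CPM in round spermatids, against 13.4% of 1907 autosomal genes. RBM3 had also been lower at an earlier step, in which 45.8% of 262 X-linked genes were at least 1.5-fold lower in early prophase than in differentiating spermatogonia. Whether its chromosome has a part in the course of RBM3 was not tested.

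With equal numbers of UMIs per cell, the share of cells with each gene followed its level. These shares come from the same counts as the levels and are no separate check. Each cell was thinned to 1000 UMIs, and shallower cells were left out (119 of 576 undifferentiated spermatogonia, and none of the differentiating or early prophase cells). RBM3 was then found in 37.6% of undifferentiated spermatogonia (33.2 to 42.3), in 48.9% of differentiating spermatogonia (43.3 to 54.5) and in 13% of early prophase cells (8.56 to 18.5). It was found in 0.612% of late spermatocytes, 0.263% of round spermatids and 0.171% of elongating spermatids. Before thinning these shares were 66.7%, 96.9%, 62.7%, 2.60%, 3.84% and 1.18%. Up to 5 RBM3 UMIs were seen in a thinned differentiating spermatogonium, and never more than 1 in a thinned cell from early prophase on.

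CIRBP was found in 40.0% of thinned undifferentiated spermatogonia (35.5 to 44.7), 55.5% of differentiating spermatogonia (49.8 to 61.0) and 56.5% of early prophase cells (49.2 to 63.6). The share was 22.3% in late spermatocytes (20.6 to 24.0), 8.06% in round spermatids (6.88 to 9.38) and 18.6% in elongating spermatids (17.2 to 20.1). Late spermatocytes were the class in which CIRBP was spread most unevenly over cells. There the variance of the thinned counts was 1.6 times their mean, against 0.98 to 1.18 in the other germ stages, and 2.67% of cells held 3 or more CIRBP UMIs although 77.7% held none. Unthinned, CIRBP was found in 64.9% of late spermatocytes and 68.4% of round spermatids.

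The genes were not linked within cells of a stage. In thinned differentiating spermatogonia 28.8% of cells held both, where independent shares would give 27.1%, and in undifferentiated spermatogonia the values were 16.6% and 15.1%. Across all classes with at least 50 cells the correlation of their counts over cells was between -0.135 and 0.203. Such counts are sparse, and the correlation is a description only.

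**Figure D3:**
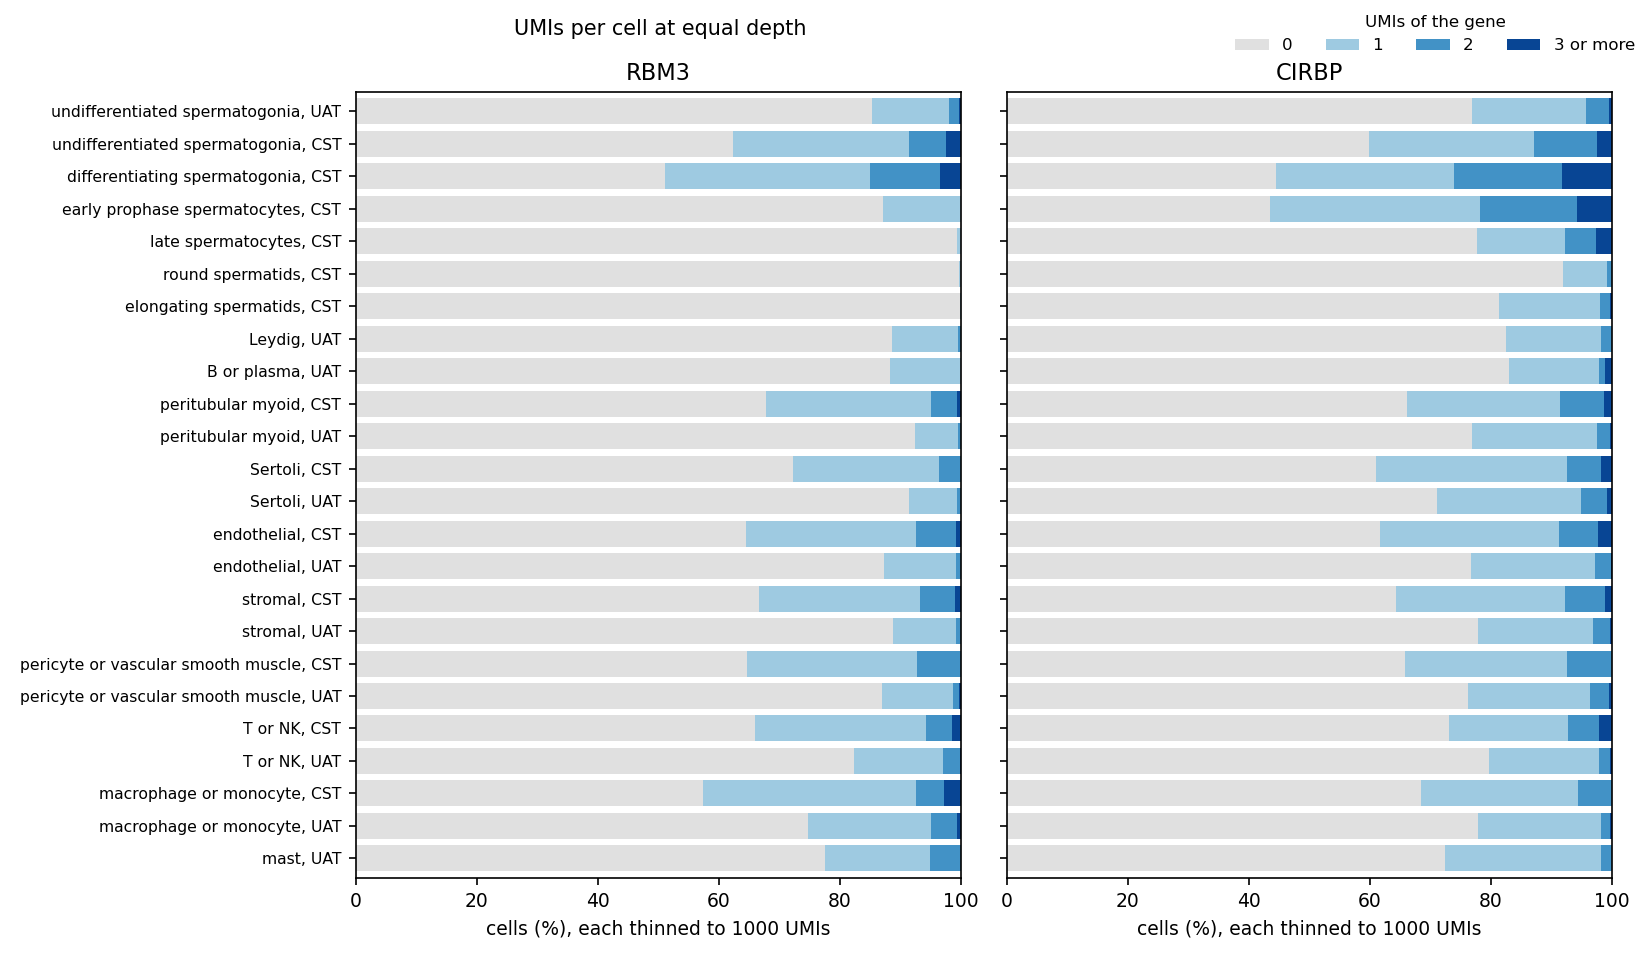
Share of cells (%) with 0, 1, 2 or 3 and more UMIs of RBM3 (left) and CIRBP (right) after each cell was thinned to 1000 UMIs, by class and library. RBM3 bars shrink to 0.171% in elongating spermatids, and the UAT bar is shorter than the CST bar in each of the 8 classes shown for both libraries.

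In the abdominal testis, somatic cells made up nearly all of the library. Among classes with at least 50 cells, RBM3 was highest in mast cells, macrophages or monocytes and T or NK cells. It reached 327 CPM (272 to 389) in 58 mast cells, 320 CPM (304 to 336) in macrophages or monocytes and 246 CPM (221 to 273) in T or NK cells. Pericytes or vascular smooth muscle cells were next at 187 CPM (171 to 203). Undifferentiated spermatogonia (144 CPM), stromal cells (130 CPM) and endothelial cells (127 CPM) followed, with intervals that overlap from one to the next. At the low end were Sertoli, peritubular myoid, B or plasma and Leydig cells at 82.2, 80.2, 79.9 and 78.1 CPM, whose intervals all overlap.

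Sertoli cells, which nurse the germ cells, held 898 RBM3 UMIs in 803 UAT cells (82.2 CPM, 76.9 to 87.8), and 45.6% of them held at least 1. At equal depth the share was 8.60% (6.62 to 10.9). CIRBP in the same cells was at 296 CPM (286 to 306) and was found in 28.8% of thinned cells (25.5 to 32.3). That level was the highest among UAT classes with at least 50 cells, with an interval that overlaps that of mast cells (222 to 329). All 14 Sertoli markers were detected in them, among them SOX9 at 405 CPM, AMH at 646 CPM and INHA at 1224 CPM. The Sertoli markers summed to 7614 CPM and the 8 markers of rete or epididymal epithelium to 5446 CPM, with 2 of those 8 at 0.

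Leydig cells, known as the source of testosterone, were marked by INSL3 at 45168 CPM and CYP17A1 at 5627 CPM. STAR was at 730 CPM and LHCGR at 248 CPM. Other listed markers were low: DLK1 at 35.0 CPM, HSD3B2 at 29.6 CPM, HSD17B3 at 2.30 CPM in 3.03% of cells, and CYP19A1 at 0. The 231 Leydig cells of UAT had 78.1 CPM of RBM3 (69.6 to 87.3) and 210 CPM of CIRBP (196 to 225). Their median depth of 15646 UMIs was well above that of the Sertoli cells, 4120 UMIs. At equal depth RBM3 was found in 11.4% of Leydig cells (7.59 to 16.3), an interval that overlaps that of Sertoli cells. CIRBP was found in 17.5% (12.8 to 23.1), below Sertoli cells with intervals apart. INSL3 alone took a visible part of the Leydig total, and with the 50 most abundant genes left out of the total RBM3 in Leydig cells was 124 CPM and in Sertoli cells 118 CPM.

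The order of UAT classes with at least 50 cells differed between the genes. Macrophages or monocytes were second for RBM3 but next to last for CIRBP, at 203 CPM (190 to 216), and Sertoli cells were first for CIRBP and eighth for RBM3. CIRBP was also more even: from the second to the eighth class it ran only from 272 to 246 CPM, each overlapping the next, and B or plasma cells were lowest at 156 CPM (140 to 173). Clusters within a class differed too. A UAT cluster of 70 macrophage or monocyte cells had 498 CPM of RBM3 (442 to 558), and the larger cluster of that class had 296 CPM (280 to 313). Endothelial cells were divided into a cluster at 116 CPM and a small one of 103 cells at 290 CPM (253 to 330).

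Both genes were lower in the abdominal than in the scrotal testis in all 8 classes with at least 50 cells in each library, by a point estimate of 1.5-fold or more each time. Between 11.9% and 34.0% of all genes tested were that much lower, depending on the class. Some intervals reached below 1.5-fold. For CIRBP they began at 1.37-fold in pericytes or vascular smooth muscle cells, 1.33-fold in macrophages or monocytes and 1.22-fold in T or NK cells. For RBM3 they began at 1.497-fold in macrophages or monocytes and 1.45-fold in T or NK cells. In undifferentiated spermatogonia RBM3 was at 144 CPM (132 to 156) in UAT and 480 CPM in CST, a ratio of 0.299 (0.272 to 0.328). CIRBP was at 246 CPM (231 to 262) and 512 CPM, a ratio of 0.480 (0.445 to 0.518). In that class 11.9% of 8394 genes were at least 1.5-fold lower in UAT, and RBM3 ranked 198 from the lowest.

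Somatic cells next to the germ cells showed RBM3 ratios of the same order. In peritubular myoid cells, the contractile layer around the tubules, RBM3 was at 80.2 CPM (75.2 to 85.5) in UAT and 373 CPM (351 to 397) in CST. Their ratio of 0.215 (0.196 to 0.235) was the lowest of the 8, and 15.4% of genes were at least 1.5-fold lower there. In Sertoli cells RBM3 was at 82.2 CPM in UAT and 315 CPM (258 to 381) in CST, a ratio of 0.261 (0.213 to 0.322), against a background of 30.0%. The CST value rests on 107 UMIs in 68 cells, and 5 of those cells held 45.8% of them. Sertoli markers of those 68 cells were partly close to UAT (SOX9 350 CPM, AMH 580 CPM, INHA 1190 CPM) and partly not: FATE1 was at 2544 CPM against 1318 CPM in UAT, HOPX at 1399 against 610, GATA4 at 67.7 against 108 and FSHR at 26.5 against 45.2. The cells also held 2924 CPM of PRM1.

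Stromal cells had RBM3 at 130 CPM in UAT and 459 CPM (443 to 475) in CST, a ratio of 0.283 (0.271 to 0.296), with 15.2% of genes at least 1.5-fold lower. Endothelial cells had 127 and 366 CPM, a ratio of 0.347 (0.315 to 0.383), against 15.9%. Pericytes or vascular smooth muscle cells had a ratio of 0.428 (0.340 to 0.545), against 34.0%. The difference was smaller in 2 classes of immune cells. RBM3 in macrophages or monocytes was at 320 and 549 CPM, a ratio of 0.583 (0.510 to 0.668, background 17.7%). In T or NK cells the ratio was 0.559 (0.456 to 0.689, background 28.9%). The intervals of both of these classes lie above those of undifferentiated spermatogonia, Sertoli, peritubular myoid, stromal and endothelial cells.

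CIRBP ratios covered a narrower range. They were 0.520 (0.481 to 0.563) in endothelial cells, 0.558 (0.480 to 0.653) in Sertoli cells and 0.580 (0.557 to 0.604) in stromal cells. They were 0.578 (0.463 to 0.729) in pericytes or vascular smooth muscle cells and 0.607 (0.567 to 0.650) in peritubular myoid cells. They were 0.629 (0.529 to 0.752) in macrophages or monocytes and 0.659 (0.531 to 0.823) in T or NK cells. The RBM3 ratio was below the CIRBP ratio in all 8 classes, with intervals apart in 5 of them and overlapping in 3 (pericytes or vascular smooth muscle cells, macrophages or monocytes, and T or NK cells). In bulk of a class, fewer cells with the transcript and less of it per cell cannot be told apart from these sums alone.

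**Figure D4:**
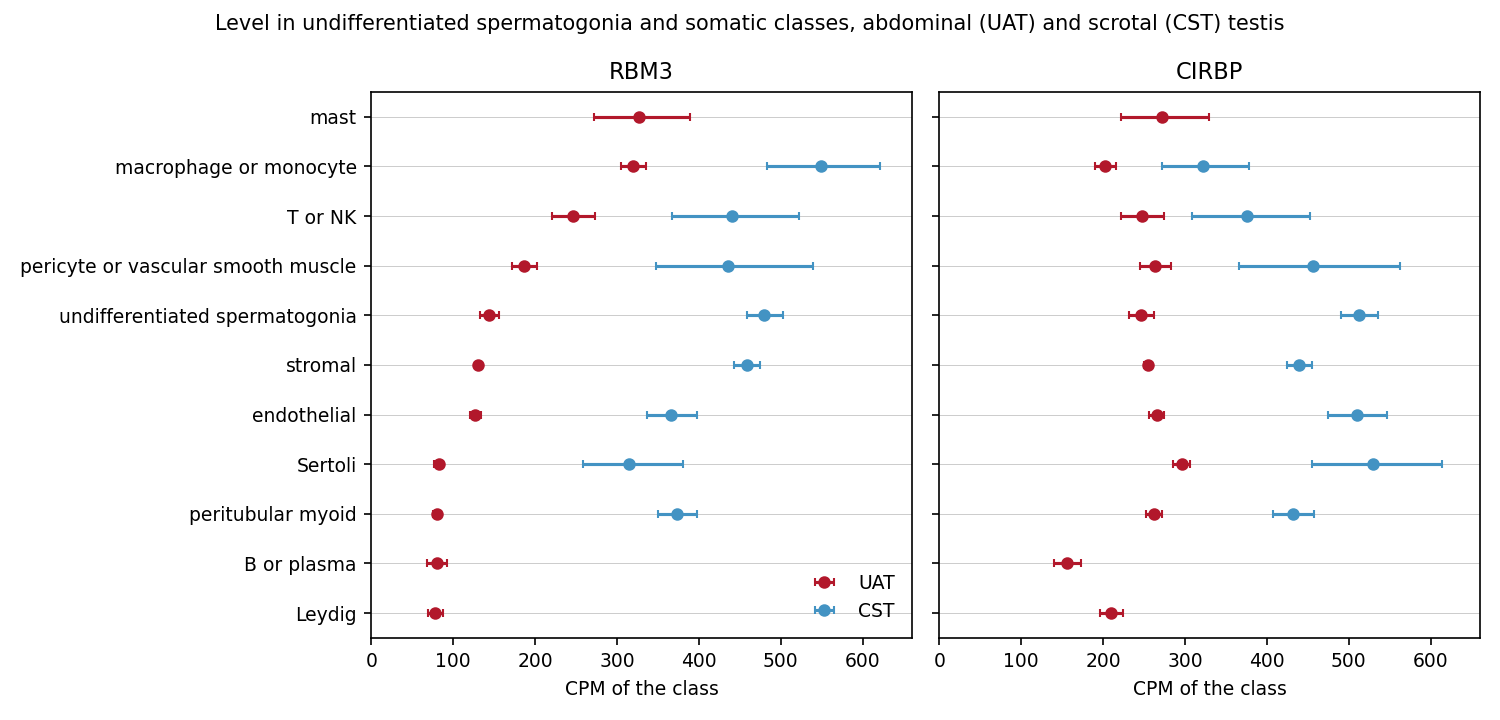
Level of RBM3 (left) and CIRBP (right) in undifferentiated spermatogonia and somatic classes with at least 50 cells, in UAT (red) and CST (blue), as CPM of the class with exact 95% Poisson intervals. The UAT point lies left of the CST point in all 8 classes that have both.

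In thinned cells the share with RBM3 was smaller in UAT. These shares come from the same counts as the levels, and most thinned cells with RBM3 held only 1 UMI. They therefore restate the difference in level, and cannot separate fewer cells with the transcript from less of it per cell. In undifferentiated spermatogonia 14.7% of UAT cells (10.6 to 19.6) and 37.6% of CST cells held RBM3 at 1000 UMIs. In Sertoli cells the shares were 8.60% and 27.8% (16.5 to 41.6), and in stromal cells 11.3% and 33.4%. The UAT share was lower with intervals apart in 8 of 8 classes for RBM3. For CIRBP this held in 4 of 8, undifferentiated spermatogonia (23.2% and 40.0%), peritubular myoid, stromal and endothelial cells. Without thinning it held in 5 classes for RBM3 and 1 for CIRBP, and the CIRBP share was then higher in UAT in 5 of 8 classes. In endothelial cells that reversal had intervals apart, with 77.4% in UAT (75.2 to 79.5) and 70.1% in CST (65.4 to 74.4). UAT cells were the deeper ones: the median undifferentiated spermatogonium held 7366 UMIs in UAT and 2551 in CST.

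Within single clusters that held at least 50 cells of both libraries, RBM3 ratios ran from 0.202 to 0.559. Undifferentiated spermatogonia, Sertoli and T or NK cells were each a single cluster, so their ratio is that of the class and checks nothing. The ratio was 0.491 in the pericyte cluster (class 0.428), 0.549 in the macrophage cluster (class 0.583) and 0.343 in the endothelial cluster (class 0.347). Stromal cells sat mostly in different clusters, with 257 UAT and 1445 CST cells in one cluster and 2519 and 139, and 1935 and 77, in the others. Within these the RBM3 ratios were 0.202, 0.258 and 0.320. The CIRBP ratio in the last of them was 0.843 (0.716 to 1.0), the nearest to no difference among the shared clusters. Peritubular myoid cells had no shared cluster with 50 cells of each library (1612 and 32 cells in one, 0 and 440 in the other), so for them position and cluster cannot be told apart.

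CST classes held more spermatid RNA than UAT classes, and that RNA is poor in RBM3. RBM3 was at 70.4 CPM over the whole CST library, below its 315 to 549 CPM in the compared CST classes. With the estimated free RNA profile subtracted, RBM3 ratios ran from 0.192 in peritubular myoid cells to 0.549 in macrophages or monocytes. CIRBP ratios then ran from 0.456 in undifferentiated spermatogonia to 0.637 in T or NK cells. The same estimate was too high for RBM3 in CST late spermatocytes and spermatids, so the subtraction is approximate. X-linked genes as a group were not lower in UAT: 8.56% of 257 in undifferentiated spermatogonia and 6.50% of 246 in stromal cells were at least 1.5-fold lower, against 11.5% and 15.0% of autosomal genes. The median ratio of all genes tested was between 0.850 and 1.01 in these classes, with log2 shifts of -0.15 in Sertoli cells and -0.19 in pericytes or vascular smooth muscle cells.

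A few classes were too small in CST for a comparison. The 19 CST Leydig cells had 346 CPM of RBM3 and 359 CPM of CIRBP, from 106 and 110 UMIs. In the other direction, 10 differentiating spermatogonia of UAT had 364 CPM of RBM3 and 435 CPM of CIRBP, from 62 and 74 UMIs. Of later germ stages UAT held 1 early prophase cell and 3 late spermatocytes.

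Other RNA-binding proteins of related structure or function were taken as lists, and their counts describe these libraries only. Among 7 measured relatives with an RNA recognition motif, such as the splicing factors RBMX and TRA2B, 1 (14.3%) was at least 1.5-fold lower in UAT undifferentiated spermatogonia, against 11.9% of all genes, and none was higher. RBMX stood at 214 CPM in UAT and 211 CPM in CST, and TRA2B at 366 and 503 CPM. The relative that was lower was RBMXL2, a germ cell copy of RBMX, at 40.1 and 61.3 CPM. Its ratio of 0.654 was above those of RBM3 (0.299) and CIRBP (0.480) in that class.

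Cold-shock domain proteins, which bind RNA through another fold, had 2 of 6 measured members (33.3%) at least 1.5-fold lower in UAT undifferentiated spermatogonia, against 11.9% of all genes, and none higher. These were YBX2 (10.3 and 59.7 CPM), which stores mRNAs in germ cells, and CARHSP1 (65.5 and 114 CPM). YBX1, the widely expressed member, was at 844 and 905 CPM. In CST germ cells YBX2 was highest in late spermatocytes at 931 CPM, so its UMIs in other CST classes move with the spermatid and spermatocyte RNA described above, and their part in its ratio was not tested. In somatic classes 1 to 4 members of this list were lower, where 15.2% to 34.0% of all genes were, YBX2 among them in stromal cells (0.32 and 79.9 CPM) and Sertoli cells (0.18 and 106 CPM).

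Among splicing kinases of the CLK and SRPK families and SR proteins, which respond to temperature through their phosphorylation, 3 of 16 (18.8%) were at least 1.5-fold lower in UAT undifferentiated spermatogonia, against 11.9% of all genes. They were SRSF2 (223 and 399 CPM), SRSF9 (537 and 896 CPM) and SRSF5 (161 and 269 CPM). CLK1, a kinase that is more active in cooled cells, was at 103 and 70.8 CPM. Of 18 described regulators and partners of RBM3 and CIRBP, such as HNRNPH1, HSF1 and NTRK2, none was 1.5-fold higher or lower. Among circadian genes, whose rhythm CIRBP is known to tune, 2 of 10 were higher there, NR1D1 (54.3 and 26.8 CPM) and DBP (35.1 and 21.9 CPM), against 7.43% of all genes, and none was lower. In peritubular myoid cells 5 of 10 circadian genes were lower, against 15.4% of all genes.

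Heat-shock genes went the other way in the same cells. Of 11 measured, 7 were at least 1.5-fold higher in UAT undifferentiated spermatogonia and none was lower, with a median log2 ratio of 0.81 against 0.00 over all genes, where 7.43% were that much higher. HSPB1, a small chaperone, was at 528 and 238 CPM, BAG3, a co-chaperone, at 48.7 and 17.8 CPM, and HSP90AB1 at 4285 and 2100 CPM. The count was 5 of 11 in stromal cells (4.73% of all genes), with 1 lower, and 4 of 11 in peritubular myoid cells (7.17% of all genes), where RBM3 had its lowest ratio. It was 1 of 11 in Sertoli cells (16.2% of all genes), where the RBM3 ratio was 0.261. Other classes were mixed. Pericytes or vascular smooth muscle cells had 7 of 12 higher and 3 lower (16.1% and 34.0% of all genes). T or NK cells had 4 and 3 of 12 (17.7% and 28.9%). Endothelial cells had 4 and 1 of 12 (6.82% and 15.9%), and macrophages or monocytes 5 and 1 of 11 (15.3% and 17.7%).

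The lists were also read along the CST germ line. Between early prophase and late spermatocytes 5 of 7 relatives were at least 1.5-fold lower and 1 was higher. X-linked RBMX was at 285, 52.7 and 7.09 CPM in differentiating spermatogonia, early prophase and late spermatocytes, while RBMXL2 was at 87.3, 292 and 650 CPM. Of 6 measured cold-shock domain proteins, 3 were at least 1.5-fold higher in late spermatocytes and 2 at least 1.5-fold lower. YBX1, YBX2 and YBX3 were higher: YBX3 was at 267 and 2981 CPM, YBX1 at 841 and 4352 CPM. Of 17 SR proteins and kinases 11 were lower and 4 higher, against 51.8% of all genes lower and 27.8% higher.

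The genes most like each member were found by the correlation of log2 levels. Over the 6 CST germ stages the 10 genes most like RBM3 were HMGA1, HTATSF1, SAP25, MORC4, PGK1, SMC1A, FAT1, AIFM1, IMPDH2 and ACTB, with r of 0.9975 or more. Of these, 5 (HTATSF1, MORC4, PGK1, SMC1A and AIFM1) are X-linked. HMGA1, a chromatin protein, was at 402, 556, 143 and 4.1 CPM from undifferentiated spermatogonia to late spermatocytes, and PGK1, a glycolytic enzyme, at 141, 242, 66.9 and 1.51 CPM. The 10 most like CIRBP were JOSD1, CANX, PIKFYVE, FKBP3, HNRNPA0, RPA2, MGME1, HYOU1, CHTOP and HNRNPL, with r from 0.972 to 0.995, and none is X-linked. The X-linked share of all 4423 genes searched was not counted. X-linked genes are few: in another gene set, that of the step into early prophase, 262 were X-linked and 7546 autosomal. A list of 10 without any therefore says little about CIRBP. CANX, a chaperone of the endoplasmic reticulum, was at 247, 420, 415, 145, 30.4 and 59.5 CPM over the 6 stages, with its minimum in round spermatids like CIRBP. RBM3 against CIRBP gave r of 0.819 over these stages. With 6 points that share a library, many of 4423 genes reach such values, and they describe the pattern only.

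Over all 24 class profiles of both libraries the gene most like RBM3 was the X-linked LAGE3 (r = 0.898), followed by PFN1 and PGK1. For CIRBP it was TMEM80 (r = 0.863), followed by BSDC1 and CHRAC1. RBM3 against CIRBP gave 0.600. The profiles of a library share its free RNA and depth, so these values carry no test.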

How the data were processed

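Single cells of the testis were profiled with the 10x Genomics 3′ kit, version 3 chemistry, in 1 library per position. The deposited values are raw UMI counts, 1 row of each matrix for a gene in a barcode. Cell Ranger 5.0.0 made them, per the file headers, and the version in the submitters' processing notes is 3.0.1. The same notes name the mouse build mm10, but the features carry macaque symbols, so the build is not settled and no coordinates are given. The RefSeq gene table (T2T-MFA8v1.1) held 5093 of 11528 features with LOC names and gave 721 a symbol. It was also used for chromosomes.

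Barcodes with at least 500 genes were kept. Doublets were scored against simulated pairs on 30 components and removed at 0.8% per 1000 barcodes. The remaining cells of both libraries were clustered together with scanpy 1.11.5 (2000 variable genes without RBM3 and CIRBP, 40 components, 15 neighbours, Leiden resolution 1, no integration). Clusters were named from 18 marker lists if at least 3 markers were detected and no list of another lineage led. A score was the mean log2 level of the markers over the median cluster. Spermatogonial clusters were then divided at the mean of their differentiating minus undifferentiated score. The cluster called undifferentiated scored higher for differentiating markers (difference 0.60), but lay below that mean. Clusters under 1/3 of their library's median UMIs without a leading marker stayed unnamed.

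Counts were summed per class and given as CPM with exact Poisson 95% intervals. Ratios have exact conditional binomial intervals, and shares of cells exact Clopper-Pearson intervals. Genes with at least 20 CPM in either group were tested for the share past 1.5-fold or 100-fold. Log2 ratios use a pseudocount of 10 CPM. The interval step was run on simulated Poisson counts. That checks the calculation only, and cannot show whether the intervals are wide enough for spread between cells beyond counting error. The share of free RNA in cells came from markers of classes that should lack them.

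Named genes were RBM3 and CIRBP, the 4 members of each list with the largest log2 ratio in a class, the 10 genes most like each member (at least 100 CPM in 1 profile, no mitochondrial or ribosomal protein genes), class markers and spermatid genes. Other list genes named were chosen after their values were seen, as were the X-linked split, the 100-fold limit and the clusters compared within late spermatocytes and round spermatids. The members, lists and markers were chosen with earlier results of these data known. Alternatives are in the closing section. Sequences of promoters and proteins were not used here.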

Additional observations from a re-analysis of the deposited data

How the results depend on the processing

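RBM3 and CIRBP levels were lower in UAT in every class compared under each alternative. The number of classes with RBM3 at least 1.5-fold lower in UAT was 7 or 8 under the 12 alternatives, and 7 where only 7 classes could be compared (resolution 0.5, where spermatogonia formed 1 cluster, and a minimum of 1000 genes, where CST kept too few Sertoli cells). For CIRBP it was 6 to 8. RBM3 ratios ranged from 0.176 to 0.307 in stromal cells and from 0.276 to 0.390 in undifferentiated spermatogonia. The share of cells was the measure that moved: without thinning, the UAT share was lower with intervals apart in 5 classes for RBM3 and 1 for CIRBP, against 8 and 4 at 1000 UMIs, and the CIRBP share was higher in UAT in 5 classes. Over the 6 lists and 8 classes, 82 list genes were at least 1.5-fold higher and 96 lower, and 43 and 32 with a minimum of 100 CPM, which tests fewer genes. For RBM3 in CST germ cells, 4 later stages were at least 1.5-fold below undifferentiated spermatogonia in every alternative that gave that class. CIRBP in early prophase fell below differentiating spermatogonia without doublet removal (ratio 0.821) and as a mean over cells (0.998). Single levels moved beyond their counting interval in 235 of 808 recomputed values, mostly where the total or the membership of a class was changed, and the cause was not tested beyond that. Free RNA limits the reading of RBM3 after early prophase, where its reported level is below that estimated for free RNA. The estimate is therefore too high there, and free RNA and expression cannot be told apart. Depth limits all classes of CST with under 100 cells. No paired analysis was possible because each position had 1 library with no replicate. The planned description of promoter motifs was not run, since no promoter sequence was used here.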
